A study of Mus musculus with 3 samples.

Results

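The splicing regulators described here were the mouse probes whose name in the scanner files begins with Hnrp, Hnrnp, Sfrs, Srsf, Mbnl, Cugbp, Celf, Ptbp or Rbfox. There were 38 such probes, with 36 gene names, of 23473 probes on the array. By family, 15 probes belonged to the heterogeneous nuclear ribonucleoproteins (hnRNP), 15 to the SR and SR-related proteins, 3 to muscleblind, 3 to CELF (named Cugbp on the array) and 2 to PTB. No probe carried a name that begins with Rbfox. The array uses older symbols: Sfrs1 is now Srsf1, Hnrpl is Hnrnpl, Cugbp1 is Celf1, and Sfrs12, Sfrs14, Sfrs15, Sfrs16, Sfrs2ip and Sfrs8 are now Srek1, Sugp2, Scaf4, Clasrp, Scaf11 and Sfswap. Of the 36 names, 35 matched a RefSeq gene, and Sfrs10 is listed as an older symbol of 2 genes, Srsf2 and Tra2b, so it keeps the name of the files.

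Most transcripts of a mammalian cell can be spliced in more than 1 way, and these RNA-binding proteins help decide which exons are kept. SR proteins bind enhancer sequences within exons and recruit the spliceosome to them, whereas hnRNP proteins package nascent RNA and often silence the exons near which they bind. In skeletal muscle, muscleblind proteins and CELF proteins are known to push many of the same exons in opposite directions, with muscleblind favouring the adult forms, and the sequestration of muscleblind by expanded repeats is the best known cause of myotonic dystrophy. PTB represses muscle exons in undifferentiated cells. The arrays measured the transcripts of these regulators, and splicing itself was not measured.

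C2C12 is a line of mouse myoblasts that leaves the cell cycle and fuses into myotubes when serum is withdrawn. Its total RNA was hybridized to 3 one-colour arrays, 1 per condition. C2C12-DF was the parental line kept for 2 days in DMEM with 2% horse serum, the differentiation medium. C2C12-W4-08 was a line selected with blasticidin after transfection of a plasmid that drives V5-tagged Wnt4 from the CMV promoter, and it was kept for 2 days in DMEM with 10% fetal bovine serum, the proliferation medium. C2C12-PR was the untransfected parental line kept for 2 days in the same proliferation medium, so it served as the control of both comparisons, and their values are given side by side. C2C12-W4-08 is 1 clone, and transfection, selection and cloning cannot be told apart from Wnt4 itself. For RNA extraction the sources differ, with Isogen in the methods and the miRNeasy Mini Kit in the labels.

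The array labels were checked before the comparisons. The Wnt4 signal was 115 in C2C12-W4-08 and below the detection limit in C2C12-PR. All 7 myoblast markers were detected on the 3 arrays, and 4 of the 7 were at least 2-fold lower in C2C12-W4-08 than in C2C12-PR. Among them was Cdh15 (M-cadherin), with a signal of 93.8 in C2C12-W4-08 and 704 in C2C12-PR. Another was Pax7, with 6.44 in C2C12-PR and 0.697 in C2C12-W4-08, the lowest signal counted as detected there. Myf5 went the other way, with 117 in C2C12-W4-08 and 60.9 in C2C12-PR. Of the markers of differentiating muscle, 5 of the 5 that could be compared exceeded C2C12-PR by 2-fold or more in C2C12-DF. In C2C12-W4-08, 3 of the same 5 were lower than in C2C12-PR, 1 of them at least 2-fold, and 2 were higher by less than 2-fold. Of the 3 endothelial markers, Pecam1 and Tek were not detected on any array and Cdh5 only in C2C12-W4-08, at 0.697, the lowest signal counted as detected there. Of 4 adipocyte markers, Adipoq was not detected on any array, Lep was detected only in C2C12-W4-08, also at 0.697, and Plin had a signal of 4.63 in C2C12-DF, 6.30 in C2C12-W4-08 and 3.96 in C2C12-PR. The fourth, Fabp4, had a signal of 2.81 in C2C12-DF, 13.2 in C2C12-W4-08 and none detected in C2C12-PR, so it was at least 4.84-fold higher in C2C12-W4-08. Of 4 blood markers, none had a signal above 2.72 on any array. Whether these shifts in marker genes have a part in the ratios below was not tested, and since RNA was measured in bulk, fewer cells of a type and less RNA per cell cannot be told apart.

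A signal is the spot median minus the mean of the 1750 blank spots, scaled so that C2C12-PR had a median of 25 and each other array a median ratio of 1 to it. A probe was taken as detected above the blank mean plus 2 SD, which held for 74.4% of probes in C2C12-DF, 92.8% in C2C12-W4-08 and 71.8% in C2C12-PR. The blank mean was 4.38 scanner units in C2C12-W4-08, against 17.9 in C2C12-DF and 20.4 in C2C12-PR. With 1 array per condition there is no biological error and no test across conditions could be made. The only repeats were 3 controls printed 24 times on each array, whose log2 ratios varied with a median SD of 0.10 for C2C12-DF and 0.25 for C2C12-W4-08, which covers spot error within arrays only. In C2C12-W4-08 the controls themselves moved, and not in 1 direction. Positive control 1 had a median signal of 182 in C2C12-W4-08 and 83.6 in C2C12-PR, with an SD of the log2 ratio of 0.52, whereas control 2 had 4596 in C2C12-W4-08 and 6826 in C2C12-PR, and control 3 had 3625 in C2C12-W4-08 and 6476 in C2C12-PR. In C2C12-DF the same controls lay nearer to C2C12-PR, at 96.4, 7221 and 7039. Over the 48 print blocks of the array, the median log2 ratio of all probes ran between -0.30 and 0.23 for C2C12-DF and between -0.77 and 0.50 for C2C12-W4-08.

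Of the 38 probes, 37 were detected on all 3 arrays. The exception was Hnrpd (AUF1, which binds AU-rich elements and marks mRNAs for decay), with a signal of 4.18 in C2C12-DF, none detected in C2C12-W4-08 and 3.96 in C2C12-PR, so it was at least 5.68-fold lower in C2C12-W4-08 by the lowest signal detected there. Both measured signals lay close to the detection limit, and the accession behind this probe was not given in the sources used here. All other signals ran from the single digits of Mbnl3 and Sfrs16 to 1400, 1803 and 2147 for Hnrpf in C2C12-DF, C2C12-W4-08 and C2C12-PR.

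Besides Hnrpd, the probes past 2-fold in at least 1 comparison were Sfrs1, Hnrpul1, Mbnl3, Hnrpl, Hnrpa0 and Sfrs10. The 250 bases upstream of the RefSeq start are shown for the 5 of these 6 that have an entry in RefSeq (build GRCm38.p6), 5′ to 3′ on the gene's strand, because these genes had the largest measured ratios. Capitals mark, on either strand, matches to TTTNNCGC, an E2F-type site, to CAGCTG, an E-box of the kind bound by myogenic factors, to the CCAAT box, to the GC box, spelled GGGCGG, and to the TATA box, spelled TATAAA.
Sfrs1 (chr11:88047123-88047372, plus strand): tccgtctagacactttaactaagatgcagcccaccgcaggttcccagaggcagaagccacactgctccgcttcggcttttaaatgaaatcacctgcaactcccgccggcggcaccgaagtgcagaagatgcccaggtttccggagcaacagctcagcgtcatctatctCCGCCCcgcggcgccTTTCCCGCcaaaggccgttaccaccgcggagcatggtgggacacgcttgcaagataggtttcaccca
Hnrpul1 (chr7:25754760-25755009, minus strand): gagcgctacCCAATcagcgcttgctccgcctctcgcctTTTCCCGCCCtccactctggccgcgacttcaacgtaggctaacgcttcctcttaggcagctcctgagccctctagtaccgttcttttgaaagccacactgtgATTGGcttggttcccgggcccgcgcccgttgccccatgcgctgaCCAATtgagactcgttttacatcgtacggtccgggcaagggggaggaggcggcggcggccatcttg
Mbnl3 (chrX:51205991-51206240, minus strand): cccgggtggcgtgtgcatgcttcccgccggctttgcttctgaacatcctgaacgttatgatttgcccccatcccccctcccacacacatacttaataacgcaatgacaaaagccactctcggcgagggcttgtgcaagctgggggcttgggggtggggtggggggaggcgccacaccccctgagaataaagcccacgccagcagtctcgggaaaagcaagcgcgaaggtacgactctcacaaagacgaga
Hnrpl (chr7:28810640-28810889, plus strand): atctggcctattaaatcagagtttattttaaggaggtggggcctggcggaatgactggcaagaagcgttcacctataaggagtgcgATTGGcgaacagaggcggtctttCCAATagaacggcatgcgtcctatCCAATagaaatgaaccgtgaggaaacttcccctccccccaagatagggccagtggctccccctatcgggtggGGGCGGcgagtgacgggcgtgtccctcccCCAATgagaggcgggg
Hnrpa0 (chr13:58128557-58128806, minus strand): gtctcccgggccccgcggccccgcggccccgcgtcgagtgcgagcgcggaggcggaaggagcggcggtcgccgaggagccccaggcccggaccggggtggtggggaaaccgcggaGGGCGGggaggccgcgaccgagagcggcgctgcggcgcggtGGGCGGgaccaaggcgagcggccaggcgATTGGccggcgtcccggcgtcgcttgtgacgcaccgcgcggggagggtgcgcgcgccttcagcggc
Sfrs1 held an E2F-type match 67 bases before the start and a GC box 82 bases before it. Hnrpul1 held an E2F-type match that overlaps a GC box, with 3 CCAAT boxes besides, and Hnrpl held 4 CCAAT boxes. Mbnl3 held none of these letters. A match is a description of the sequence and not of a factor bound there.

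Promoters were listed for 34 of the member genes, with 53 promoters in all (none for Hnrpll and Sfrs10). The E2F-type letters stood in 13.2% of these 53, against 4.28% of all 32851 RefSeq promoters of the same length, and the GC box in 71.7%, against 32.7%. The CCAAT box stood in 34.0% against 33.8%, the E-box in 11.3% against 13%, and the TATA box in 5.66% against 12.4%. The median log2 ratio in C2C12-DF was -0.27 over the 6 genes with an E2F-type match and -0.34 over the 28 genes without, while in C2C12-W4-08 it was -0.23 over the 6 with and -0.01 over those without. For the other 4 motifs the medians in C2C12-DF were between -0.43 and -0.14 over genes with the letters and between -0.40 and -0.27 over genes without, and in C2C12-W4-08 between -0.18 and -0.06 with and between -0.09 and 0.17 without.

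In C2C12-DF, most splicing regulators gave a lower signal than in C2C12-PR, by modest amounts. The log2 ratio lay below 0, which by construction is the value of the median of all 15918 probes compared, for 31 of 38 probes, and the median of the 38 was -0.32. At least 2-fold lower were 3 of the 38 (background 4.54% of all probes): Sfrs1, Hnrpul1 and Mbnl3. None of the 38 was at least 2-fold higher (background 4.91%). At 1.5-fold, 11 of the 38 were lower (background 13.6%) and 1 was higher (background 13.7%), Cugbp2. The 3 probes at 2-fold are 7.89% of the 38, too few to be set against the background, and the shift lay in the many probes a little below 0. The log2 ratios of the 38 had an SD of 0.45, against 0.66 over all probes, whose interquartile range ran from -0.34 to 0.34.

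The lower signals were not limited to dim probes. Among the 22 splicing-regulator probes with a signal of at least 100 in both C2C12-DF and C2C12-PR, 20 lay below 0, against 45.9% of all such probes. Of probes with a mean signal of at least 500, all 7 splicing regulators lay below 0 with a median of -0.31, where the median of all such probes was 0.16. Without the detection rule, undetected probes were set at the lowest detected signal of each array, 2.35 in C2C12-DF and 2.72 in C2C12-PR. The ratios of the 38, all detected on both arrays, did not change. The median probe itself moved to -0.21, the log2 ratio of these lowest signals, and 25 of the 38 lay below it.

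In C2C12-W4-08, the same probes spread to both sides of C2C12-PR. The log2 ratio lay below 0, the value of the median of all 16682 probes, for 20 of the 37 compared, and the median was -0.03. At least 2-fold higher were Sfrs10, Hnrpa0 and Mbnl3, 3 of 37 (background 8.55%), and 1 was at least 2-fold lower, Hnrpl (background 11.0%), so both counts lie at or under the background. Scaling to the 75th percentile moved the median of all probes up by 0.56 and gave 9 higher and 0 lower in place of 3 and 1, where 27.0% of all probes were higher and 4.66% lower, so the counts moved along with all probes. At 1.5-fold, 6 were higher (background 21.0%) and 3 lower (background 21.9%). Among the 23 probes whose signals reached 100 in both C2C12-W4-08 and C2C12-PR, 16 lay below 0, against 48.9% of all such probes. The log2 ratios of the 37 had an SD of 0.59, against 0.86 over all probes, whose interquartile range ran from -0.50 to 0.49.

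Just inside and just outside 2-fold, the nearest probes in C2C12-DF were Mbnl3 at a log2 ratio of -1.12 and Sfrs2 at -0.96. In C2C12-W4-08 they were Hnrpl at -1.23 and Hnrpul1 at -0.99 on the lower side, and Hnrpa0 at 1.18 and Sfrs2ip at 0.69 on the higher side.

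Among the SR proteins, Sfrs1 (ASF/SF2), which binds purine-rich exonic enhancers, had a signal of 232 in C2C12-DF, 361 in C2C12-W4-08 and 518 in C2C12-PR. The lowest value was that of the differentiating cells, with a log2 ratio of -1.16 for C2C12-DF and -0.52 for C2C12-W4-08. Over the other ways of processing, the C2C12-DF ratio ran between -1.20 and -0.43, the weaker of these with the local background subtracted, and it stayed past 2-fold in 8 of the 11 that alter the values. The C2C12-W4-08 ratio turned to 0.25 with each print block centred and to 0.15 with the local background subtracted, so its direction is not settled.

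Sfrs2 (SC35), the protein that marks nuclear speckles, had a signal of 207 in C2C12-DF, 356 in C2C12-W4-08 and 404 in C2C12-PR, that is, a log2 ratio of -0.96 for C2C12-DF and -0.18 for C2C12-W4-08, the second of which turned to 0.26 with the local background subtracted. Sfrs5 (SRp40) had a signal of 370 in C2C12-DF, 469 in C2C12-W4-08 and 648 in C2C12-PR. Its log2 ratios were -0.81 for C2C12-DF and -0.47 for C2C12-W4-08, but in C2C12-W4-08 it turned to 0.31 with print blocks centred, 0.03 with normexp and 0.53 with the local background. Both probes were lowest in the differentiating cells.

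Sfrs7 (9G8), which also carries mRNA out of the nucleus, was the Srsf probe whose ratios pointed opposite ways, with a signal of 397 in C2C12-DF, 770 in C2C12-W4-08 and 550 in C2C12-PR. Its log2 ratio was -0.47 for C2C12-DF and 0.49 for C2C12-W4-08, and neither sign changed under any of the 14 other ways of processing. Sfrs9 (SRp30c) differed least, with a signal of 578 in C2C12-DF, 606 in C2C12-W4-08 and 609 in C2C12-PR, with ratios smaller than the median SD of the control spots. The 3 remaining Srsf probes were highest in C2C12-PR.

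Sfrs4 (SRp75) had a signal of 98.3 in C2C12-DF, 92.5 in C2C12-W4-08 and 113 in C2C12-PR. Sfrs6 (SRp55) had 132 in C2C12-DF, 130 in C2C12-W4-08 and 178 in C2C12-PR. Sfrs11 (p54) had 33.0 in C2C12-DF, 37.3 in C2C12-W4-08 and 48.9 in C2C12-PR. Their log2 ratios were between -0.57 and -0.20 in C2C12-DF and between -0.45 and -0.29 in C2C12-W4-08. Sfrs6 stayed below the median probe throughout, and Sfrs4 lay 0.01 above it in C2C12-DF without the detection rule. Sfrs11 has no settled direction. In C2C12-DF it turned to 0.46 with normexp and 0.99 with the local background, and in C2C12-W4-08 it turned in 3 other ways of processing, to as much as 0.65.

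Sfrs10 was high on the C2C12-W4-08 array alone, with a signal of 34.8 in C2C12-DF, 92.0 in C2C12-W4-08 and 37.4 in C2C12-PR. The log2 ratio was -0.10 for C2C12-DF and 1.30 for C2C12-W4-08, and the C2C12-W4-08 ratio was -0.04 when normexp subtracted the local background of each spot and added 50. Positive control 1 was also over 2-fold higher in C2C12-W4-08, and controls 2 and 3 were lower, as given above. Whether these shifts have a part in this ratio was not tested. The 6 other SR-related probes were likewise highest in C2C12-W4-08, by smaller margins. Of these 6, the C2C12-W4-08 ratios of Sfrs12, Sfrs14, Sfrs15 and Sfrs16 turned below the median probe in at least 1 other way of processing.

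Sfrs2ip (Scaf11), an SR-related factor associated with the tail of RNA polymerase II, had a signal of 65.4 in C2C12-DF, 145 in C2C12-W4-08 and 90.2 in C2C12-PR. Sfrs8 (Sfswap), the homologue of suppressor of white-apricot of Drosophila, had 72.2 in C2C12-DF, 90.7 in C2C12-W4-08 and 59.7 in C2C12-PR. The log2 ratio of Sfrs2ip was -0.46 for C2C12-DF and 0.69 for C2C12-W4-08, and that of Sfrs8 was 0.28 for C2C12-DF, which turned to -0.08 with normexp, and 0.61 for C2C12-W4-08.

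Sfrs12 (Srek1) had a signal of 26.6 in C2C12-DF, 41.6 in C2C12-W4-08 and 33.3 in C2C12-PR. Sfrs15 (Scaf4), which also binds the polymerase tail, had 39.8 in C2C12-DF, 49.0 in C2C12-W4-08 and 39.9 in C2C12-PR. The log2 ratios of these and the following probes were between -0.35 and 0.07 in C2C12-DF and between 0.17 and 0.37 in C2C12-W4-08, and in C2C12-DF Sfrs14 and Sfrs15 changed side in 2 and 3 other ways of processing. Sfrs14 (Sugp2) had a signal of 11.5 in C2C12-DF, 12.3 in C2C12-W4-08 and 11.0 in C2C12-PR. Sfrs16 (Clasrp), which binds the kinase Clk4, had 8.29 in C2C12-DF, 13.6 in C2C12-W4-08 and 10.6 in C2C12-PR.

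Over the whole SR and SR-related family, 13 of 15 probes lay below 0 in C2C12-DF, with a median of -0.35 whose sign did not change in 14 other ways of processing. In C2C12-W4-08, 7 of 15 lay below 0 and the median was 0.17, but it lay below the median probe in 5 of the 14, by as much as 0.33 among probes with a signal of at least 100. The SR names were then divided by their current symbol, a division made after the values were seen. The 8 probes whose current symbol begins with Srsf had a median log2 ratio of -0.52 in C2C12-DF, with 8 of 8 below 0, and the sign of this median held under 14 of 14 other ways of processing. In C2C12-W4-08 their median was -0.34, with 7 of 8 below 0, but it was 0.10 with each print block centred and 0.20 with the local background subtracted. The 7 other SR-related probes include Sfrs10, the older symbol of both Srsf2 and Tra2b, so its place in this division is not settled. They had a median of -0.10 in C2C12-DF, with 5 of 7 below 0. Without the detection rule this median lay 0.11 above the median probe. In C2C12-W4-08 it was 0.37, with 0 of 7 below 0, and it stayed above the median probe under 13 other ways of processing, at its smallest by 0.0027.

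Among the hnRNP proteins, Hnrpul1 (E1B-AP5), which takes part in mRNA export, was lower in both C2C12-DF and C2C12-W4-08, with a signal of 23.4 in C2C12-DF, 28.7 in C2C12-W4-08 and 57.2 in C2C12-PR. The log2 ratio was -1.29 in C2C12-DF, the lowest of the 38, and -0.99 in C2C12-W4-08. Both stayed below the median probe under 12 of 12 other ways of processing, and the C2C12-DF ratio was weakest with normexp, at -0.62.

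Hnrpl, which binds CA-rich RNA, was also highest in C2C12-PR, with a signal of 241 in C2C12-DF, 195 in C2C12-W4-08 and 457 in C2C12-PR. The log2 ratio was -0.93 for C2C12-DF and -1.23 for C2C12-W4-08. With the local background subtracted the C2C12-W4-08 ratio was -0.17, and with normexp the C2C12-DF ratio was -1.41. Hnrpk, a poly(C)-binding protein, was likewise lower on both, with a signal of 257 in C2C12-DF, 202 in C2C12-W4-08 and 355 in C2C12-PR. Its log2 ratio was -0.47 for C2C12-DF and -0.82 for C2C12-W4-08. Positive controls 2 and 3 were also lower in C2C12-W4-08, as given above. Whether that shift has a part in the C2C12-W4-08 ratios of Hnrpul1, Hnrpl and Hnrpk was not tested.

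Hnrpa0, which binds AU-rich elements, was at least 2-fold higher in C2C12-W4-08, with a signal of 76.8 in C2C12-DF, 124 in C2C12-W4-08 and 54.7 in C2C12-PR. The log2 ratio was 0.49 for C2C12-DF and 1.18 for C2C12-W4-08, and the C2C12-W4-08 ratio ran between 0.93 and 2.03 under the other ways of processing. Here too positive control 1 moved the same way and controls 2 and 3 the other way, and whether these shifts have a part was not tested. Hnrpa0 was lowest in C2C12-PR, as was Hnrpdl, whereas Hnrpl and Hnrpul1 were highest there.

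The 5 brightest hnRNP probes were lower in C2C12-DF in each case. Hnrpf, which binds G-rich RNA, had a log2 ratio of -0.62 for C2C12-DF and -0.25 for C2C12-W4-08 (signals above), where it turned to 0.26 with the local background. Hnrpab, an A/B-type hnRNP, had a signal of 1071 in C2C12-DF, 1850 in C2C12-W4-08 and 1317 in C2C12-PR. It was higher in C2C12-W4-08 only, with a log2 ratio of 0.49, against -0.30 in C2C12-DF, but the C2C12-W4-08 ratio was -0.02 in 1 other way of processing.

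Hnrpa2b1, which sorts mRNAs and small RNAs as well as regulating exons, had a signal of 1075 in C2C12-DF, 1442 in C2C12-W4-08 and 1322 in C2C12-PR. Hnrpc, which binds uridine tracts of nascent RNA, had a signal of 1011 in C2C12-DF, 1171 in C2C12-W4-08 and 1335 in C2C12-PR. The log2 ratios in C2C12-DF were -0.30 for Hnrpa2b1 and -0.40 for Hnrpc, and those in C2C12-W4-08 were 0.13 and -0.19, smaller than the median SD of the control spots. Hnrpa2b1 turned to -0.81 in C2C12-W4-08 with normexp.

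Hnrpa3 had 2 probes that differed in size. Probe M400010318 had a signal of 618 in C2C12-DF, 946 in C2C12-W4-08 and 1157 in C2C12-PR, with log2 ratios of -0.91 for C2C12-DF and -0.29 for C2C12-W4-08. Probe M400006586 had 129 in C2C12-DF, 147 in C2C12-W4-08 and 150 in C2C12-PR, with log2 ratios of -0.22 for C2C12-DF and -0.03 for C2C12-W4-08. The direction in C2C12-DF was shared and the size was not, and the second probe changed side in C2C12-W4-08 in 4 other ways of processing.

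Hnrpu (scaffold attachment factor A) had a signal of 344 in C2C12-DF, 516 in C2C12-W4-08 and 567 in C2C12-PR. Hnrph1, which like Hnrpf binds G-rich RNA, had 508 in C2C12-DF, 571 in C2C12-W4-08 and 632 in C2C12-PR. The log2 ratio in C2C12-DF was -0.72 for Hnrpu and -0.31 for Hnrph1, but Hnrph1 turned to 0.09 with normexp and 0.37 with the local background. In C2C12-W4-08 the ratios of Hnrpu, Hnrph1 and Hnrpll each changed side in at least 2 other ways of processing. Hnrpll, known for the splicing of CD45 in T cells, had a signal of 136 in C2C12-DF, 152 in C2C12-W4-08 and 164 in C2C12-PR. Hnrpdl, a relative of Hnrpd, had 162 in C2C12-DF, 226 in C2C12-W4-08 and 157 in C2C12-PR, with a log2 ratio of 0.05 in C2C12-DF, which turned to -0.02 with the spot mean, and 0.53 in C2C12-W4-08. Of these, Hnrpdl alone was not highest in C2C12-PR.

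Over the hnRNP family, 12 of 15 probes lay below 0 in C2C12-DF, with a median of -0.31 whose sign held under 14 of 14 other ways of processing. In C2C12-W4-08, 10 of 14 lay below 0, with a median of -0.14, which without the detection rule lay 0.02 above the median probe. Several hnRNP genes have processed pseudogenes, and cross-hybridization of these probes was not tested.

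The muscleblind probes differed between C2C12-DF and C2C12-W4-08. Mbnl3, which in mouse myoblasts is known to hold back differentiation, had a signal of 3.72 in C2C12-DF, 22.2 in C2C12-W4-08 and 8.09 in C2C12-PR. The log2 ratio was -1.12 for C2C12-DF and 1.46 for C2C12-W4-08, the highest of the 37 compared there. The C2C12-DF signal lay just above the lowest detected signal of that array, 2.35, so its size rests on few scanner units, and with normexp the ratios were -0.11 for C2C12-DF and 0.23 for C2C12-W4-08.

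Mbnl1, the main muscleblind protein of adult muscle, had a signal of 394 in C2C12-DF, 580 in C2C12-W4-08 and 434 in C2C12-PR. The log2 ratio was -0.14 for C2C12-DF and 0.42 for C2C12-W4-08. Mbnl2 had a signal of 122 in C2C12-DF, 201 in C2C12-W4-08 and 126 in C2C12-PR, with a log2 ratio of -0.05 for C2C12-DF and 0.68 for C2C12-W4-08. All 3 muscleblind probes were thus higher in C2C12-W4-08, with a median of 0.68, except that with normexp Mbnl1 turned to -0.33 and Mbnl2 to -0.14. The median there was 0.28 with each print block centred and 0.29 with the local background subtracted. Positive control 1 was also higher in C2C12-W4-08 and controls 2 and 3 were lower. Whether these shifts have a part in the muscleblind ratios was not tested. In C2C12-DF the differences of Mbnl1 and Mbnl2 were small, and the median of the family, -0.14, lay 0.07 above the median probe without the detection rule.

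The CELF probes had a median log2 ratio of 0.29 in C2C12-DF, the opposite side from the other families, but with normexp it was -0.22. This median is the value of a single Cugbp1 probe. It was 0.05 with each print block centred and 0.02 with the local background subtracted. Cugbp2 (Celf2) had a signal of 119 in C2C12-DF, 62.7 in C2C12-W4-08 and 76.2 in C2C12-PR. Its log2 ratio was 0.64 in C2C12-DF, the highest of the 38, and -0.28 in C2C12-W4-08, and neither sign changed under 12 of 12 other ways of processing.

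Cugbp1 (Celf1), which antagonizes muscleblind at many exons, had 2 probes that disagreed. Probe M300019706 had a signal of 355 in C2C12-DF, 273 in C2C12-W4-08 and 291 in C2C12-PR. Probe M400000106 had a signal of 35.7 in C2C12-DF, 69.2 in C2C12-W4-08 and 63.0 in C2C12-PR. The log2 ratios in C2C12-DF were 0.29 for the first and -0.82 for the second, and in C2C12-W4-08 -0.09 and 0.14, so these probes give Celf1 no single direction, and which transcripts each reads was not tested.

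Of the PTB probes, Ptbp1, a repressor of many muscle and neuronal exons, had a signal of 96.0 in C2C12-DF, 173 in C2C12-W4-08 and 148 in C2C12-PR. Ptbp2, its paralogue best known from neurons, had a signal of 153 in C2C12-DF, 126 in C2C12-W4-08 and 179 in C2C12-PR. The log2 ratio of Ptbp1 was -0.62 for C2C12-DF and 0.23 for C2C12-W4-08. That of Ptbp2 was -0.22 for C2C12-DF and -0.50 for C2C12-W4-08. Both were lower in C2C12-DF, Ptbp1 the more so, and both C2C12-W4-08 directions turned in 1 other way of processing each.

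Relatives of these families that the array carries under other names also lay mostly below 0 in C2C12-DF. Of 16 such genes 14 had a probe, and 9 of the 12 compared in C2C12-DF lay below 0, with a median of -0.27. There 0 were at least 2-fold higher (background 4.91%) and 1 was at least 2-fold lower (background 4.54%). In C2C12-W4-08 the median was -0.06, and 1 of 13, Brunol5, was at least 2-fold lower (background 11.0%). Its signal of 1.56 in C2C12-W4-08, against 5.20 in C2C12-PR, lay near the limit of detection. These counts are too few to be set against the background. The Brunol genes, relatives of the Cugbp genes, gave no single direction in C2C12-DF. There Brunol4 had a signal of 8.74 and a log2 ratio of 0.64, Brunol6 had 5.09 and -0.43, and Brunol5 was not detected. Of the RBFOX genes, Rbm9 (Rbfox2) had a signal of 179 in C2C12-DF, 137 in C2C12-W4-08 and 197 in C2C12-PR. A2bp1 (Rbfox1) had a signal of 4.18 in C2C12-DF, 7.16 in C2C12-W4-08 and 4.37 in C2C12-PR.

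The core spliceosome was also mostly below 0 in C2C12-DF, with 42 of 56 genes, a median of -0.16, 3 at least 2-fold lower, a share near the background of 4.54%, and 0 at least 2-fold higher (background 4.91%). The 3 were U2af2, which recognizes the polypyrimidine tract, at -1.72, the helicase Dhx38 at -1.39 and Sf3a2, a U2 snRNP subunit, at -1.19. The Dhx38 signals, 3.72 in C2C12-DF and 9.74 in C2C12-PR, lay near the limit of detection. In C2C12-W4-08 the median was 0.09, and 1 gene was at least 2-fold lower, again U2af2, at -1.10 (background 11.0%). Other regulators of alternative splicing had a median of -0.14 over 24 genes in C2C12-DF and of -0.00 over 25 in C2C12-W4-08, where Taf15, an RNA-binding protein of the transcription machinery, was 1 at least 2-fold higher (background 8.55%), with a signal of 6.46 in C2C12-DF, 24 in C2C12-W4-08 and 8.09 in C2C12-PR. Whether these lists differ from the 38 probes was not tested.

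Among the enzymes that act on SR proteins, Stk23 (Srpk3), the muscle-specific SR protein kinase, stood apart. It gave a signal of 92.3 in C2C12-DF, 1.56 in C2C12-W4-08 and none detected in C2C12-PR, so it was at least 33.9-fold higher in C2C12-DF. The ubiquitous kinase Srpk1 had a signal of 34.3 in C2C12-DF, 55.0 in C2C12-W4-08 and 64.2 in C2C12-PR, with a log2 ratio of -0.90 in C2C12-DF. Over the 9 enzymes compared, the median was 0.02 for C2C12-DF and 0.03 for C2C12-W4-08, and 0 were past 2-fold in either. The background was 4.91% higher and 4.54% lower in C2C12-DF, and 8.55% higher and 11.0% lower in C2C12-W4-08.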

How the data were processed

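Total RNA of C2C12-DF, C2C12-W4-08 and C2C12-PR was measured on 3 one-colour arrays, 1 per condition. The scanner intensities at 635 nm were deposited by the authors with no background subtracted and no scaling. The authors also deposited a table of normalized signals, with a median of 25.0 in each array, whose spot summary and background are not given in the sources used here.

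From the scanner files, each spot median was corrected by the mean of the blank spots. Probes below the blank mean plus 2 SD were taken as not detected, and each array was brought to a median ratio of 1 against C2C12-PR. Ratios were taken between probes detected on both arrays, and 2-fold was used as a mark of size. No p-value was computed. The table of control spots, 24 of each of 3 controls, gave the spread within arrays. Promoter sequences and current symbols came from RefSeq tables of GRCm38.p6, and only the 250 upstream bases were searched.

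The probes, families, further gene lists and alternatives were chosen with earlier results of these data known. Named with all signals were every probe of the families with 5 or fewer probes, the hnRNP and SR probes past 2-fold, the 5 of each of these families with the highest mean signal, and any probe detected on some arrays only. The signals of other members are given as well, since no plot is shown. From the further lists up to 3 genes past 2-fold in each direction were named, except 1 that is not reported here. Cdh15, Pax7, Myf5, Rbm9, A2bp1, Brunol4, Brunol6, Srpk1 and Stk23 were named after their values were seen.

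Other ways of processing were loess (span 0.3), quantile normalization, the 75th percentile for scaling, centring of print blocks, normexp (offset 50) with the local background, plain subtraction of the local background, signals of at least 20 or 100, no detection rule, the deposited table with and without scaling, the spot mean, each gene once, and 1.5-fold. The spot mean with the detection calls of the spot median was chosen after seeing the data. A change of side or direction was judged relative to the median probe of each way of processing. Python 3.11.15, numpy 2.4.6, pandas 2.3.3, R 4.3.3 and limma 3.58.1 were used. The steps were tested on simulated data of 23473 probes. Probes changed 3-fold passed 2-fold in 119 of 124 cases for C2C12-DF and in 132 of 138 for C2C12-W4-08. Unchanged probes did so in 202 of 16468 and 391 of 17008. The simulation held no shift between print blocks, as the real arrays do, so these counts are not error rates of the real arrays.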

Additional observations from a re-analysis of the deposited data

How the results depend on the processing

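No paired analysis was possible because each condition had 1 array. Leaving out a replicate was not possible for the same reason. The median log2 ratio of the splicing regulators in C2C12-DF stayed below that of all probes throughout. It moved to -0.42 with quantile normalization, -0.44 with normexp and -0.17 with the deposited table without scaling. In the last of these the median of all probes was 0.14, so the regulators lay at -0.31 relative to it. Relative to the median probe, the value was weakest without the detection rule, at -0.11. There the median probe moved, and the median of the regulators stayed at -0.32. In C2C12-W4-08 the median was 0.53 with scaling to the 75th percentile, 0.24 with the local background subtracted and 0.49 with the deposited table without scaling. The scalings moved the median of all probes as well, by 0.56 and 0.57 in C2C12-W4-08.

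The count at least 2-fold higher in C2C12-DF, 0 as reported, was 1 with normexp, 1 with the local background and 1 at 1.5-fold. The count lower there, 3 as reported, was 5 with quantile normalization, 1 with a signal of at least 100, 1 with the spot mean and 11 at 1.5-fold. In C2C12-W4-08 the count higher, 3 as reported, was 9 with the 75th percentile, 9 with the unscaled deposited table, 0 with normexp, 0 with a signal of at least 100, 0 with the spot mean and 6 at 1.5-fold. The count lower, 1 as reported, was 2 with quantile normalization, loess, normexp, no detection rule or the scaled deposited table, 4 with the local background, 0 with the 75th percentile or the unscaled deposited table, and 3 at 1.5-fold. The shares of all probes moved too. In C2C12-W4-08, 27.0% were higher with the 75th percentile, 27.8% with the unscaled deposited table and 1.01% with normexp, and 15.8% lower with the local background, against 8.55% higher and 11.0% lower as reported. The spot mean compared 25 probes, because 1 blank spot with a mean of 3590 scanner units raised the detection limit of C2C12-PR to 199. With the detection calls of the spot median, chosen after seeing the data, it gave medians of -0.37 and 0.03. Sfrs10 in C2C12-W4-08, 1.30 as reported, was -0.042 with normexp. Except for this spot-mean limit, the lowest signals filled in without the detection rule and the smaller sets of probes, the cause of these changes was not tested. Relative to the median probe, 25 of 38 probes kept their direction in C2C12-DF in every way of processing, and 15 of 37 in C2C12-W4-08.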
